A study of Homo sapiens with 36 samples.

Results

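H820 is a human lung adenocarcinoma line whose EGFR gene carries an exon 19 deletion (Ex19del in the labels) together with T790M, the change that blocks binding of early EGFR inhibitors. Its response to a folded RNA as such, whichever aptamer it was, is described here: 6 libraries from cells given an aptamer were pooled and set against 3 libraries from cells given vehicle. These 9 libraries are part of 36 from 4 non-small cell lung cancer lines, the others being H3255 (L858R), H1975 (L858R with T790M) and A549 (wild-type EGFR). All 3 H820 groups were kept for 24 h in RPMI treatment medium with 1% serum. The groups were H820 MinE07 (3 libraries, an RNA aptamer against EGFR at 3 µM), H820 C36 (3 libraries, an extended control aptamer at 3 µM) and H820 Vehicle (3 libraries, DPBS with magnesium and no aptamer). Both aptamers were folded in DPBS with 5 mM MgCl2, so magnesium was in all groups and RNA was in the 2 aptamer groups. The series speaks of independent biological experiments, and nothing in the labels says that equal replicate numbers mark a shared day. H820 is 1 line, so its EGFR genotype and its other features cannot be told apart.

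Aptamers are short nucleic acids that fold and bind a protein. EGFR is a receptor tyrosine kinase that drives the MAP kinase cascade, and MYC and the ETS factor ETV4 are among the genes downstream of it. Several of the pathways described below respond to how cells spread and adhere: YAP binds TEAD factors at promoters and enhancers of genes such as CCN1, CCN2 and ANKRD1, and SRF, with its actin-sensing partners, binds CArG boxes of actin and other cytoskeletal genes. NKX2-1 is the lineage factor of the alveolar epithelium, and SOX2 is a stem cell and airway lineage factor.

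Levels are FPKM, the fragments assigned to a gene scaled by the length of the gene and by the size of the library. Of 66366 named genes, 13627 had a mean of at least 1 FPKM over the 9 libraries and a value above 0 in all of them, and these were tested. A change is the difference of log2(FPKM + 0.5) between the 6 aptamer and the 3 vehicle libraries, with its standard error (SE) from limma, and a gene is called where its p, adjusted by Benjamini and Hochberg's method, is under 0.05. The added 0.5 makes changes of low genes look smaller. Genes above 1 FPKM numbered 13604 to 13765 per library, and relative depth, read from the steps between low values, ran from 0.857 (a vehicle library) to 1.29 (a MinE07 library). The absolute number of reads is not known. In 2 MinE07 libraries (replicates 1 and 2) the mitochondrial genes COX1, ND4, ND4L and RNR2 were listed at 0 and are not tested, and both libraries had a low summed FPKM (362928 and 370219 against 392161 to 408809 in the others). Counts without these libraries are given below where they bear on a result. H820 expressed epithelial markers: KRT8 averaged 725 FPKM, EPCAM 26.0 and NKX2-1 31.6, while SFTPA1 was listed at 0, SFTPB and SFTPC were under 0.1, and all 6 endothelial markers were under 0.1. Of the fibroblast markers LUM stood at 41.1 FPKM, with COL1A1 at 0.801 and the other 5 under 0.2. Of the immune markers CD68, also known from lysosomes of other cells, stood at 17.0 FPKM, and CD3E and PTPRC were under 0.1.

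Promoters of 7 genes that carry the groups described below are shown first, as the RefSeq windows (GRCh38.p14) from 250 bases before to 50 bases after a gene's start, written 5′ to 3′ on the gene's strand. Capitals mark the letters searched on both strands: GGAATG, the core that TEAD factors bind, in the first 3, the SRF box (CC, then any 6 letters of A or T, then GG) in the next 3, and TTTGAA, an element of genes expressed late in the cell cycle, in the last. The windows are ANKRD1 (chr10:90921038-90921337, minus strand), CCN2 (chr6:131951323-131951622, minus), FILIP1L (chr3:99876124-99876423, minus), SRF (chr6:43171019-43171318, plus), ACTG1 (chr17:81512750-81513049, minus), TPM4 (chr19:16067288-16067587, plus) and CDC20 (chr1:43358731-43359030, plus). Where the table has several windows for a gene, the first listed one is shown.
ANKRD1: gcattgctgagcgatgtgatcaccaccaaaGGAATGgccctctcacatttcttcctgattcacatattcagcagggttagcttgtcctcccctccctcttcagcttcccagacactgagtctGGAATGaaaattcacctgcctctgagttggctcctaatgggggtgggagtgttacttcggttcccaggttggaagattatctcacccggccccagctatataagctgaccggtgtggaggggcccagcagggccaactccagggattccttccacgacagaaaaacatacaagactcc
CCN2: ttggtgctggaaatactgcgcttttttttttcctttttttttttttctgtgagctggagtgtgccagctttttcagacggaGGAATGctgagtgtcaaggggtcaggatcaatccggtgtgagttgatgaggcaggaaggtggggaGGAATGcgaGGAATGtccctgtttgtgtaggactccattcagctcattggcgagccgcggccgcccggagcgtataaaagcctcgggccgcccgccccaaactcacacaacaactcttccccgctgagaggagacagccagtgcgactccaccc
FILIP1L: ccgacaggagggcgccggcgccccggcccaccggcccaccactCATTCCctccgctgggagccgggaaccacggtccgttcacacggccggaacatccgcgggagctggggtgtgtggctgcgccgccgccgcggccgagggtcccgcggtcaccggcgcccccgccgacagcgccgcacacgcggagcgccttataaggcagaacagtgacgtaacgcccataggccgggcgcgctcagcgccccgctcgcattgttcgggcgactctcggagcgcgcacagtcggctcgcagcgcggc
SRF: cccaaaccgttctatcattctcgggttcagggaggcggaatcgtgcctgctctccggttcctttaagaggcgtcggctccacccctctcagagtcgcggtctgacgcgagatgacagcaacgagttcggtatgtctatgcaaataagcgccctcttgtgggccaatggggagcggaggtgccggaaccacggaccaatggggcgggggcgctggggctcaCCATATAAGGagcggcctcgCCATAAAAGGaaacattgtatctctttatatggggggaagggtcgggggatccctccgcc
ACTG1: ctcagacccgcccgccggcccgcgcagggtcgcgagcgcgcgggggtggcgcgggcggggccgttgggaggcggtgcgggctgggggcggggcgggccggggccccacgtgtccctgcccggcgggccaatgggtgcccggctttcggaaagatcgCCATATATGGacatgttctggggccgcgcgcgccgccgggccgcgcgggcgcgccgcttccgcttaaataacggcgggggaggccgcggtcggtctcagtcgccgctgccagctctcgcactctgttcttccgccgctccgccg
TPM4: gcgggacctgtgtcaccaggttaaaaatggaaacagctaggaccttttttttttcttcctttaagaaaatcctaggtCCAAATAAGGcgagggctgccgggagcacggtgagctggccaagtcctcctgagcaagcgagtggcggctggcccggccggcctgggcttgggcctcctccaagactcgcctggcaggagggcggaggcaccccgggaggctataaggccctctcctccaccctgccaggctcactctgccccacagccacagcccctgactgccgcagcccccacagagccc
CDC20: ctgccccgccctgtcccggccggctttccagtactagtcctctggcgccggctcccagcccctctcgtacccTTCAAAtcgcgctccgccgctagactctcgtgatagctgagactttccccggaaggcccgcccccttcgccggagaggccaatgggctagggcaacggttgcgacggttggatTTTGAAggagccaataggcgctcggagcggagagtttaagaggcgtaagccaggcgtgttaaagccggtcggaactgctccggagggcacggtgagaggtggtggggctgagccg

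A window was given for 9492 of the 13627 tested genes. GGAATG was in 10.6% of these windows, the SRF box in 0.99% and TTTGAA in 9.51%. The CCN2 window holds GGAATG 3 times, that of ANKRD1 2 times and that of FILIP1L once, there as its reverse complement. The SRF window holds the SRF box 2 times. A match describes the letters and does not show that a factor binds there. Among genes called higher (303 with a window) and lower (156), GGAATG was in 16.8% and 10.9% of windows. The SRF box was in 2.97% and 2.56%, and TTTGAA in 8.58% and 21.2%. These shares were not tested, and windows are missing for many genes. Motifs of other lists were searched as well and are not described.

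The aptamers were compared with vehicle to ask which H820 transcripts respond to having a folded RNA in the medium. The response was shallow. FILIP1L, the secreted follistatin-like protein FSTL3, CCN1, MYC, CD70, RELB and the actin gene ACTB rose, and SOX2, PRR15L, NKX2-1, CDKN1A, DDIT4, NT5E, the mitotic kinesin KIF20A and the hypoxia target EGLN3 fell. Of 13627 genes, 625 (4.59%) were called, 403 (2.96%) higher and 222 (1.63%) lower with an aptamer. The median absolute change of called genes was 0.18 on the log2 scale, 10 changed by 0.5 or more and none by 1 or more. The 6 aptamer libraries did not overlap the 3 vehicle libraries for 615 of the 625 called genes. Over all genes tested the share was 12.1% (7.48% with the aptamers higher and 4.65% with them lower). Genes were called on these same values, so little overlap among called genes follows from the choice and is no support. In these bulk samples, a change of RNA per cell and a change in the share of cells that express a gene cannot be told apart.

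Of the called genes, 64.5% were higher, and after correction for GC content and length (11559 genes with both known) 742 genes were called and 51.6% of them, 383, were higher and 359 lower. The count rested on the few vehicle libraries: it was 213, 145 and 298 without vehicle replicates 1, 2 and 3, and 359, 364 and 384 without C36 replicate 1, C36 replicate 2 or MinE07 replicate 2. Without both MinE07 libraries with the mitochondrial zeros it was 292. The call of single genes is taken up again after the gene groups. All gene lists were chosen with earlier results of these data known. Their counts beside the shares of all genes describe the lists and support nothing by themselves.

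**Figure D1:**
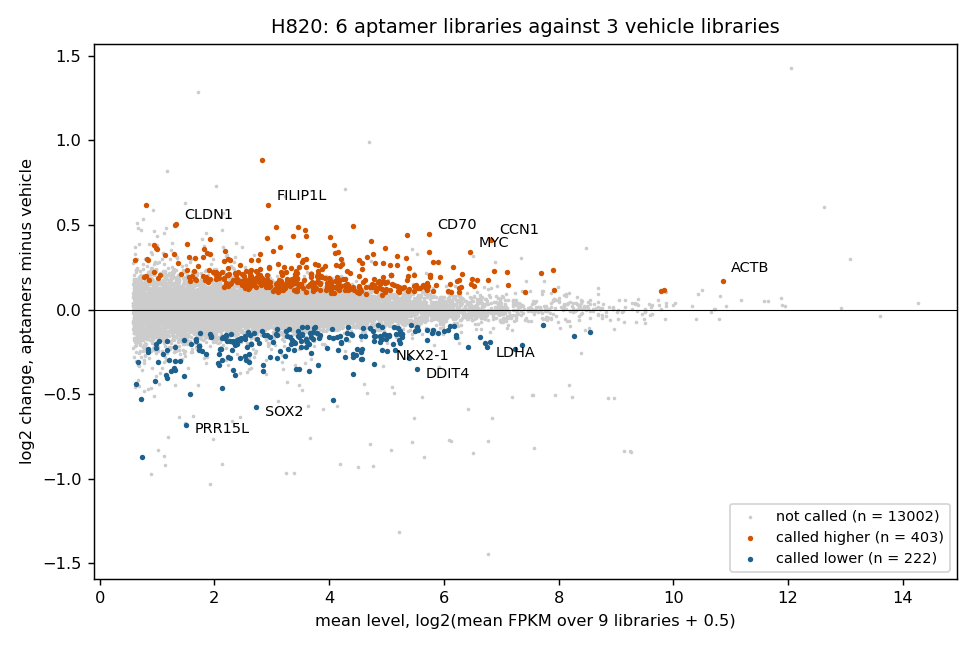
Each point is a gene; the x axis is its level (log2 of mean FPKM over the 9 libraries plus 0.5) and the y axis its log2 change, 6 aptamer libraries minus 3 vehicle libraries. The 403 genes called higher (orange) and 222 called lower (blue) lie within 0.88 and -0.87, and several grey points with larger changes are uncalled.

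The largest changes were taken from called protein-coding and long non-coding genes with a current symbol, further copies left out. Their groups had to be free of overlap, so a lack of overlap among them is no result. The largest rise was that of FILIP1L, a filamin A-interacting protein-like gene tied to cell motility. Its level was 5.23, 4.59 and 5.61 FPKM in the vehicle libraries, 8.48, 7.94 and 7.24 with C36 and 8.63, 8.18 and 8.51 with MinE07. All 6 aptamer libraries lay above all 3 vehicle libraries. The change was 0.62 (SE 0.063, limma adjusted p = 0.000702), from 5.14 ± 0.51 to 8.16 ± 0.52 FPKM (mean ± SD, n = 3 and 6). CLDN1, a tight junction claudin, rose by 0.51, from 1.47 ± 0.20 to 2.29 ± 0.14 FPKM (adjusted p = 0.00222). FSTL3, which binds activin, was 16.7, 15.9 and 16.3 FPKM in vehicle, 22.5, 23.0 and 19.6 with C36 and 23.0, 24.9 and 26.3 with MinE07, a rise of 0.49 (adjusted p = 0.00697). The groups did not overlap, and the lowest aptamer value was a C36 library. The phosphodiesterase PDE5A rose by 0.49, the glutamate transporter SLC1A3 by 0.47, the hyaluronan receptor LAYN by 0.43, the CDC42 effector CDC42EP1 by 0.44 and the mineralization gene ODAPH by 0.50, with adjusted p from 0.000302 to 0.00124.

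A surface protein of tumour interest was among the rises. CD70, the TNF-family ligand of CD27, was 42.1, 42.0 and 43.1 FPKM in vehicle, 57.0, 57.5 and 54.1 with C36 and 58.2, 56.3 and 64.3 with MinE07. The vehicle values lay close together and below every aptamer value, and the rise was 0.44 (SE 0.043, adjusted p = 0.000497).

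The largest fall among the same kinds of gene, uncharacterized loci left out, was that of PRR15L, from 3.28 ± 0.32 to 1.87 ± 0.35 FPKM (-0.68, adjusted p = 0.00867). Its relative PRR15 fell by 0.50 (adjusted p = 0.00450). SOX2 was 7.54, 8.18 and 8.13 FPKM in vehicle, 4.94, 4.66 and 5.05 with C36 and 6.23, 5.06 and 5.16 with MinE07. MinE07 replicate 1 was the highest aptamer library and still lay below all vehicle libraries. The change of SOX2 was -0.58 (SE 0.070, adjusted p = 0.00161). CEACAM1, an adhesion molecule, fell by 0.39 (adjusted p = 0.00116), the MYC relative MYCL by 0.39 (adjusted p = 0.0134), the secreted-protein kinase FAM20C by 0.40 and the endothelin gene EDN2 by 0.37 (adjusted p = 0.00699 and 0.00694). PRRT1B, ANXA2R and NMU, the neuromedin U gene, fell by 0.47, 0.36 and 0.36.

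**Figure D2:**
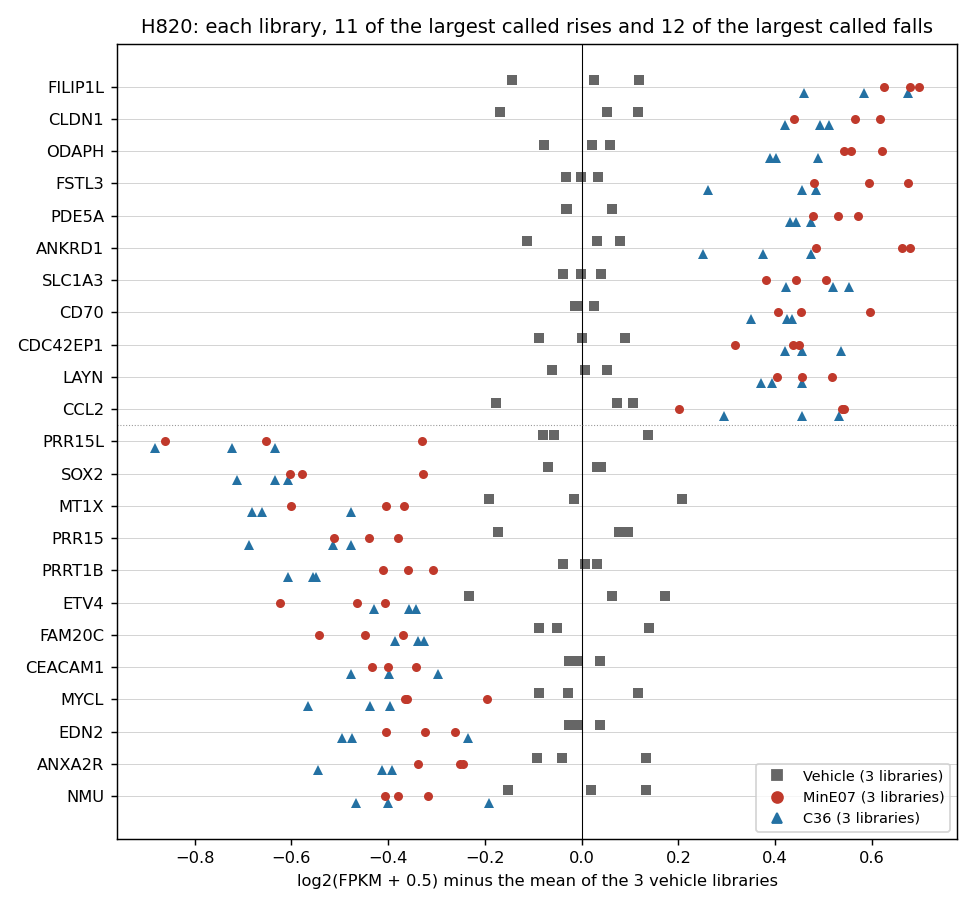
Each row is a gene, with 11 of the largest rises above the dotted line and 12 of the largest falls below it, among called genes that the naming rule admits; the x axis is log2(FPKM + 0.5) in each library minus the mean of the 3 vehicle libraries. Red circles (MinE07) and blue triangles (C36) lie together on 1 side of the grey squares (vehicle) in every row, as the naming rule requires. MinE07 replicate 1 is the circle nearest to vehicle for SOX2 and PRR15L.

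The targets of YAP and TEAD were gathered into a list after values had been seen, so their direction is described and supports nothing by itself. Of 21 tested members, 11 rose and 1 fell, against 2.96% and 1.63% of all genes, with a median change of 0.13 against 0.01 for all genes tested. CCN1, a matricellular protein of the CCN family, was 94.0, 88.8 and 92.0 FPKM in vehicle, 122, 126 and 114 with C36 and 119, 125 and 128 with MinE07. The gap between the groups was wider than the spread within either, and the rise was 0.41 (SE 0.035, adjusted p = 0.000302). Its relative CCN2, whose window is printed above, was 9.54, 9.12 and 9.33 FPKM in vehicle, 12, 10.9 and 11.1 with C36 and 10.6, 11.7 and 11 with MinE07 (0.25, adjusted p = 0.00552). ANKRD1, a nuclear ankyrin-repeat protein, was 6.49, 5.61 and 6.26 FPKM in vehicle, 8.06, 8.68 and 7.37 with C36 and 8.74, 10.1 and 9.96 with MinE07. Its 3 MinE07 values were above its C36 values, and the call (0.49, adjusted p = 0.0189) was lost whichever vehicle library was left out (adjusted p up to 0.0931). The growth factor TGFB2 rose by 0.30 (adjusted p = 0.000758), FJX1 by 0.31 (adjusted p = 0.00161) and the YAP regulators AMOTL2 and LATS2 by 0.20 and 0.17 (adjusted p = 0.00705 and 0.0309). AXL, a receptor kinase known from resistance to EGFR inhibitors, rose by 0.17 (adjusted p = 0.0168). NT5E, the ecto-enzyme CD73, went the other way: it was 26.9, 27.3 and 25.7 FPKM in vehicle, 21.7, 21.5 and 22.8 with C36 and 21.4, 21.7 and 21.0 with MinE07, a fall of 0.29 (adjusted p = 0.000702). The NT5E groups did not overlap. The list had 5 to 11 members called higher when 1 library was left out, fewest without vehicle replicate 1 (5) and replicate 2 (6), and 6 without both MinE07 libraries with mitochondrial zeros. Of the 8 called rises with a promoter window, ANKRD1, CCN2, LATS2 and TGFB2 held GGAATG.

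Genes of the actin cytoskeleton, a list also added after values had been seen, were higher where called. Of 26 tested members 12 rose and none fell, against 2.96% and 1.63% of all genes, with a median of 0.12. ACTB, cytoplasmic beta-actin, was 1696, 1663 and 1786 FPKM in vehicle, 1932, 1988 and 1886 with C36 and 1851, 1980 and 1947 with MinE07 (0.17, adjusted p = 0.0119). No aptamer library reached down to the highest vehicle library. ACTG1, gamma-actin, rose by 0.12 from 870.3 ± 20.4 to 944 ± 16 FPKM (adjusted p = 0.0195), and its window holds 1 SRF box. The tropomyosin TPM1 was 63.1, 62.2 and 63.7 FPKM in vehicle, 77.4, 73.7 and 69.5 with C36 and 74.9, 78.0 and 78.3 with MinE07 (0.25, adjusted p = 0.00371). TPM4 rose by 0.17 (adjusted p = 0.00364), the actin crosslinkers ACTN4 and ACTN1 by 0.22 and 0.13 (adjusted p = 0.00555 and 0.0217), the focal adhesion genes ZYX and VCL by 0.21 and 0.11 (adjusted p = 0.0260 and 0.0423), and caldesmon, CALD1, by 0.20 (adjusted p = 0.00305). SRF itself rose by 0.11 (adjusted p = 0.0271). The filamins FLNA and FLNC, at 0.06 and -0.01, were not called. The number called higher was 5 without vehicle replicate 1, 6 without vehicle replicate 2 and 8 without C36 replicate 1 or 2, up to 12 without C36 replicate 3, and 6 without both MinE07 libraries with mitochondrial zeros. Of 11 called members with a promoter window, 3 (ACTG1, SRF and TPM4) held the SRF box.

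**Figure D3:**
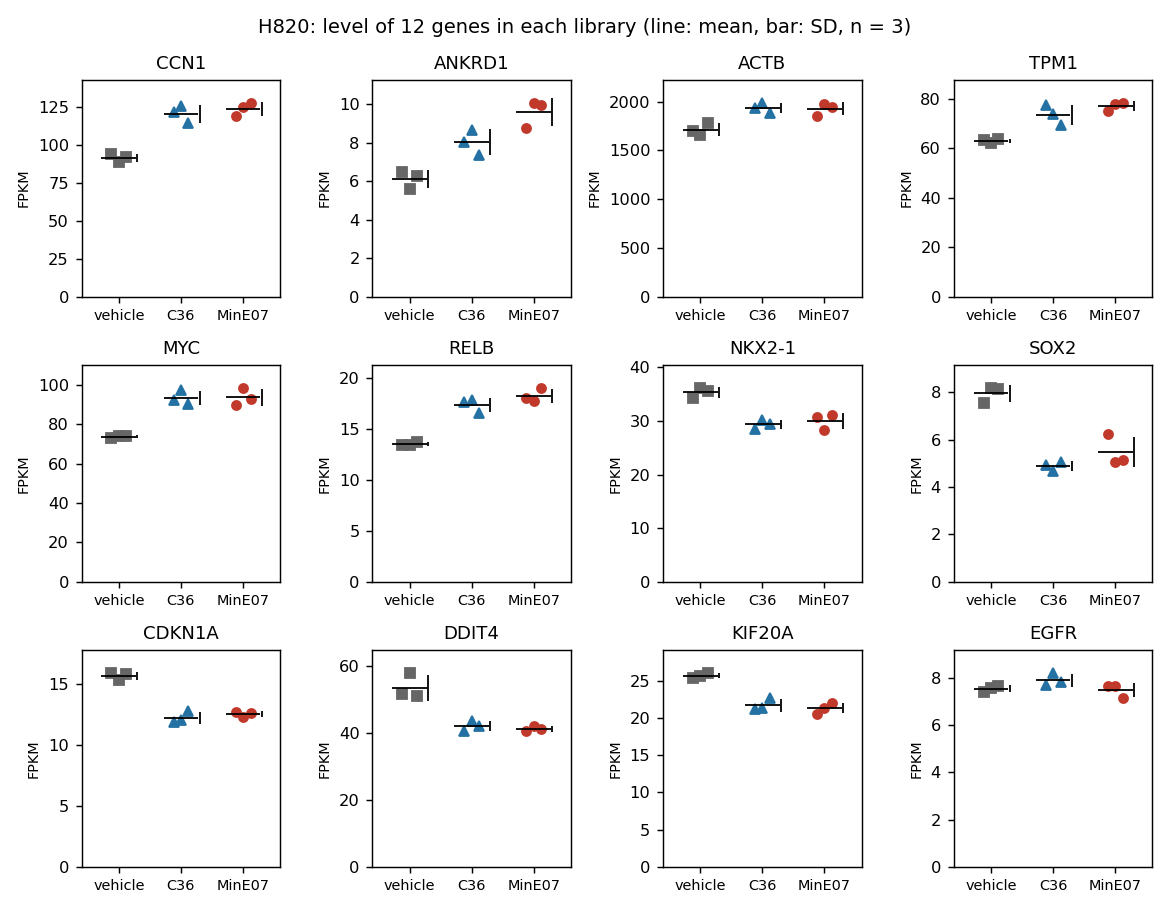
Levels of 12 genes in FPKM (y axes start at 0) in each of the 9 libraries, by treatment; points are libraries, lines the mean and bars the SD of 3 libraries. CCN1, ANKRD1, ACTB, TPM1, MYC and RELB lie higher with both aptamers, NKX2-1, SOX2, CDKN1A, DDIT4 and KIF20A lower, and EGFR overlaps between the groups.

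EGFR, its partners ERBB2 and ERBB3, and MET were not called in the pooled comparison. EGFR was 7.39, 7.56 and 7.67 FPKM in vehicle, 7.68, 8.19 and 7.80 with C36 and 7.65, 7.63 and 7.13 with MinE07, and the groups overlapped (change 0.02, SE 0.038, adjusted p = 0.779). The change was 0.0011 for ERBB2, -0.06 for ERBB3 and 0.06 for MET, the hepatocyte growth factor receptor known to be amplified in H820, at 127 ± 4.4 FPKM with an aptamer and 122 ± 2.3 with vehicle (adjusted p = 0.312). Against vehicle, MET was called with C36 alone (0.10, limma adjusted p = 0.0473) and not with MinE07 alone (0.02, adjusted p = 0.776). The difference between the aptamers was not called for MET (adjusted p = 0.301). ERBB2 was at 0.06 with MinE07 alone and -0.06 with C36 alone, neither called. A miss of the threshold does not show that these levels were equal. Of 16 tested genes of the EGFR-MAPK output, 3 rose and 1 fell, against 2.96% and 1.63% of all genes. Their median of -0.02 joins unlike aptamers. Against vehicle, MinE07 alone had 1 called higher and 4 lower (median -0.11) and C36 alone 3 higher and none lower (median 0.04). MYC was 73.0, 74.2 and 74.4 FPKM in vehicle, 92.5, 97.3 and 90.3 with C36 and 89.9, 98.5 and 92.9 with MinE07. Its vehicle values lay close together and below every aptamer value, and it rose by 0.34 (SE 0.031, adjusted p = 0.000424). The EGFR ligand HBEGF rose by 0.23 (adjusted p = 0.0344) and the receptor kinase EPHA2 by 0.20 (adjusted p = 0.0227). ETV4 fell by 0.44, from 1.38 ± 0.26 to 0.884 ± 0.095 FPKM (adjusted p = 0.0221). Its aptamer mean lay under 1 FPKM, so it entered the test only through the vehicle libraries, where it was high. The direction of this 1 fall is therefore no support. Whichever vehicle library was left out, 1 gene of this list was called higher. The list of MYC and ribosome biogenesis had a median of 0.08, and 2.96% of all genes rose and 1.63% fell. Of its 22 genes, 5 rose (RRS1, NOP2, POLR1B, NOLC1 and DKC1, by 0.09 to 0.16) and none fell. That count was 0 without vehicle replicate 2, 1 without vehicle replicate 1, 2 without vehicle replicate 3, C36 replicate 1, C36 replicate 2 or MinE07 replicate 2, and 0 without both MinE07 libraries with mitochondrial zeros. It was 3 without C36 replicate 3 or MinE07 replicate 3. None of the 36 ribosomal protein genes was called.

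NF-kB genes were higher with the aptamers where they were called. Of 10 tested members, 4 rose (RELB, NFKB2, CCL2 and ICAM1) and none fell, against 2.96% and 1.63% of all genes, with a median of 0.11. A further 13 of the 23 listed genes had a mean under 1 FPKM and were not tested. RELB, the partner of the non-canonical NF-kB pathway, was 13.5, 13.4 and 13.7 FPKM in vehicle, 17.6, 17.8 and 16.6 with C36 and 18.0, 17.7 and 19.0 with MinE07 (0.38, adjusted p = 0.000425). NFKB2, which encodes the partner protein of RELB, rose by 0.30 from 3.59 ± 0.070 to 4.54 ± 0.22 FPKM (adjusted p = 0.00319). NFKBIA, the inhibitor that canonical signalling induces, was at 0.0041 (adjusted p = 0.967). The chemokine CCL2 rose by 0.43 (adjusted p = 0.0344). After correction for GC content and length the list had 4 called higher and 1 lower. It had 2 called higher without C36 replicate 2, without MinE07 replicate 2, and whichever vehicle library was left out.

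No tested gene of the interferon response, RNA sensing and HLA class I lists was called higher. Of 23 tested interferon response genes, none rose and 2 fell, against 2.96% and 1.63% of all genes, with a median of -0.08. Among the falls was IFI44, by 0.23 (adjusted p = 0.0347). None of 14 RNA sensing genes and none of 9 HLA class I genes was called. IFI44, an interferon-induced gene, was 10.3, 11.1 and 9.75 FPKM in vehicle, 9.12, 8.03 and 9.16 with C36 and 9.14, 8.97 and 8.10 with MinE07. All 6 aptamer libraries lay below all 3 vehicle libraries. No gene of the list was called without C36 replicate 2, MinE07 replicate 2, vehicle replicate 1 or vehicle replicate 2, 3 were without C36 replicate 3, and none without both MinE07 libraries with mitochondrial zeros.

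Genes of the alveolar lineage were lower where called, with 1 exception. Of 8 tested members, 4 fell (SFTA3, NKX2-1, MUC1 and LPCAT1) and 1 rose (SLC34A2, a phosphate transporter of alveolar cells). Over all genes 1.63% fell and 2.96% rose, and the list median was -0.18. The list holds 20 genes, and 12 of them had a mean under 1 FPKM and were not tested. NKX2-1 was 34.2, 36.1 and 35.6 FPKM in vehicle, 28.6, 30.1 and 29.4 with C36 and 30.7, 28.3 and 31.1 with MinE07. The groups did not overlap and NKX2-1 fell by 0.25 (SE 0.033, adjusted p = 0.00289). SFTA3, its neighbour in the genome, fell by 0.28 (adjusted p = 0.0195), the lipid enzyme LPCAT1 by 0.20 (adjusted p = 0.0104) and the mucin MUC1 by 0.20 (adjusted p = 0.0288). SLC34A2 rose by 0.36 (adjusted p = 0.0364). The number that fell was 1 without vehicle replicate 2 and 2 without vehicle replicate 3, and 3 without both MinE07 libraries with mitochondrial zeros. Among epithelial keratins, KRT7 rose by 0.23 (adjusted p = 0.00423) and KRT19 fell by 0.23 (adjusted p = 0.000497), and KRT8 and KRT18 were at -0.01 and 0.03 with no call. The summed level of endothelial markers was 0.145 to 0.243 FPKM with an aptamer and 0.215 to 0.276 with vehicle. The summed fibroblast level, nearly all of it LUM, was 41.0 to 46.9 against 36.5 to 39.3, with COL1A2, COL3A1 and DCN under 0.1. LUM itself, the 1 fibroblast marker tested, rose by 0.20 (adjusted p = 0.0250). The part of these levels in the results was not tested. SNAI2, a factor of the epithelial-mesenchymal transition, rose by 0.33 (adjusted p = 0.00499) and the matrix protein SPARC fell by 0.10 (adjusted p = 0.0271), and no other of the 17 tested genes of that list was called.

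**Figure D4:**
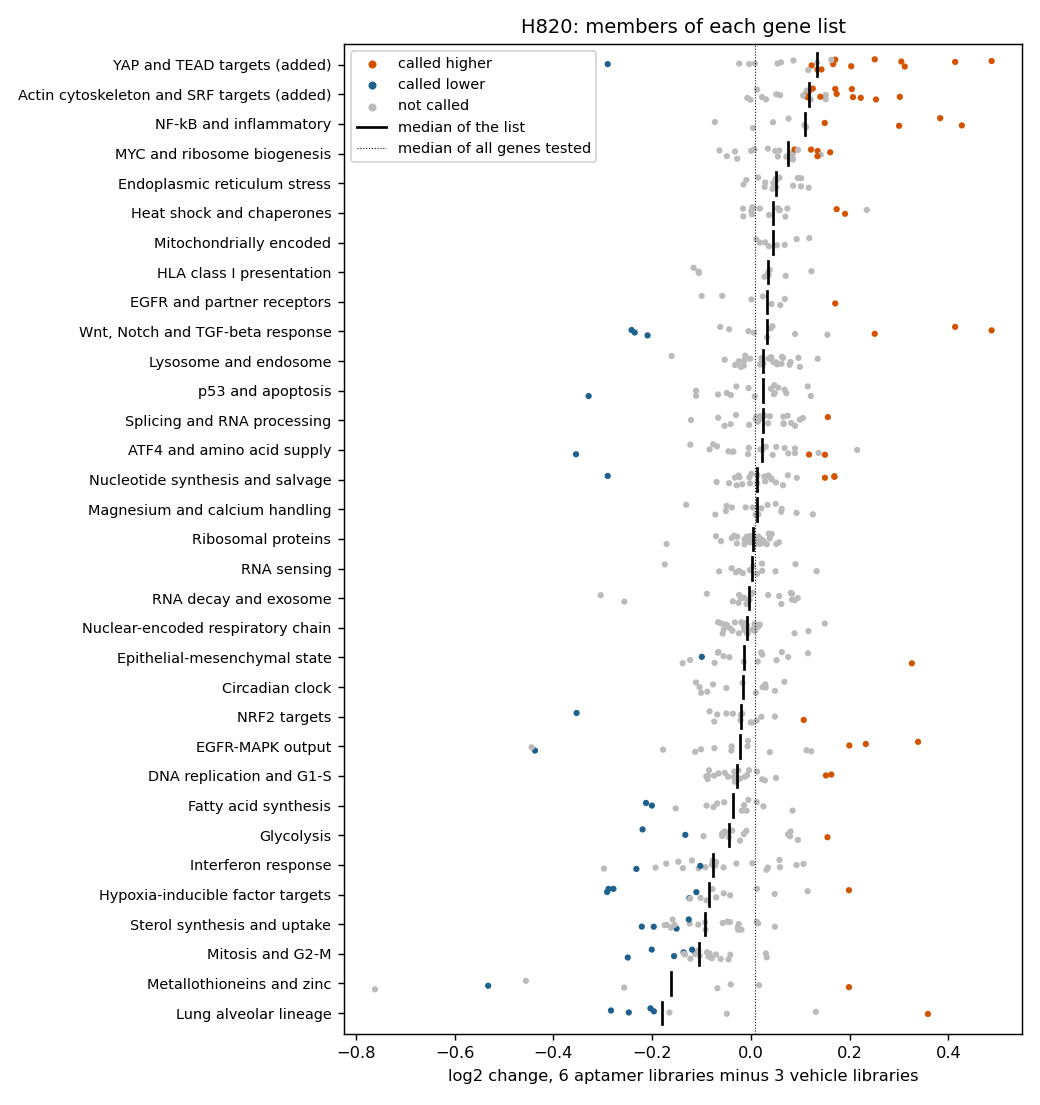
Each row is a gene list, sorted by its median, and each point a tested member at its log2 change (x axis), orange where called higher, blue where called lower and grey where not called; black bars are list medians and the dotted line is the median of all genes tested. The 2 added lists stand at the top with medians of 0.13 and 0.12, and the alveolar list at the bottom with -0.18.

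Mitotic genes were lower where called. Of 22 mitotic genes, 5 fell (KIF20A, CENPE, BUB1, CDC20 and BIRC5) and none rose. Over all genes 1.63% fell and 2.96% rose, and the list median was -0.10. Against vehicle, 12 were called lower with MinE07 alone (median -0.15) and 2 with C36 alone (median -0.06). KIF20A, a kinesin of cytokinesis, was 25.4, 25.7 and 26.0 FPKM in vehicle, 21.2, 21.3 and 22.8 with C36 and 20.6, 21.4 and 22.1 with MinE07, a fall of 0.25 (adjusted p = 0.00156). Every aptamer library lay below every vehicle library. CDC20, an activator of the anaphase-promoting complex, was 62.5, 62.8 and 62.6 FPKM in vehicle, 56.7, 57.4 and 59.6 with C36 and 55.0, 56.4 and 56.9 with MinE07, a fall of 0.14 (adjusted p = 0.0134), and its window holds TTTGAA 2 times. Only CDC20, of the 4 called mitotic genes with a promoter window, held TTTGAA. MKI67 was at -0.13 with no call (adjusted p = 0.220). The number that fell was 1 without vehicle replicate 1 or 2, 2 without vehicle replicate 3, C36 replicate 1, MinE07 replicate 2 or MinE07 replicate 3, 3 without C36 replicate 2 or MinE07 replicate 1, and 8 without C36 replicate 3. It was 2 without both MinE07 libraries with mitochondrial zeros. Of 23 genes of DNA replication, CCNE1 and CDT1 rose by 0.16 and 0.15 (adjusted p = 0.0309 and 0.0166) and none was called lower. Most of that list, 17 genes, lay below vehicle, with a median of -0.03. None of it was called whichever vehicle library was left out. CDKN1A, the cyclin-dependent kinase inhibitor p21, was 15.8, 15.3 and 15.8 FPKM in vehicle, 11.8, 12 and 12.7 with C36 and 12.7, 12.2 and 12.6 with MinE07. It fell by 0.33 (SE 0.030, adjusted p = 0.000421) and was the only called gene of 18 in the p53 and apoptosis list.

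Hypoxia and glucose genes were mostly lower where called. Of 16 targets of hypoxia-inducible factors, 5 fell (BNIP3, NDRG1, EGLN3, KDM3A and BNIP3L) and 1 rose (MXI1, by 0.20). Over all genes 1.63% fell and 2.96% rose, and the list median was -0.08. EGLN3, an oxygen-sensing hydroxylase, was 23.0, 24.3 and 23.8 FPKM in vehicle, 19.9, 19.2 and 20.4 with C36 and 19.0, 18.7 and 19.5 with MinE07, a fall of 0.28 (adjusted p = 0.000782). NDRG1 fell by 0.29 (adjusted p = 0.00184) and the mitophagy receptor BNIP3 by 0.29 (adjusted p = 0.0408). Lactate dehydrogenase LDHA fell by 0.22 and aldolase ALDOA by 0.13 (adjusted p = 0.0161 and 0.0105), while hexokinase HK2 rose by 0.16 (adjusted p = 0.0384), a call lost after rescaling by medians of ratios (adjusted p = 0.0518). The number of hypoxia targets that fell was 2 without C36 replicate 1, C36 replicate 2, vehicle replicate 1 or vehicle replicate 2, 3 or 4 without 1 of the remaining libraries, and 3 without both MinE07 libraries with mitochondrial zeros. MXI1 was called in neither that last fit nor any of the 3 fits that left out a vehicle library.

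DDIT4, an inhibitor of mTORC1 that stress and hypoxia induce, was 51.5, 57.8 and 50.9 FPKM in vehicle, 40.6, 43.4 and 42.0 with C36 and 40.5, 42.2 and 41.1 with MinE07. It fell by 0.35 (SE 0.039, adjusted p = 0.000782), and the groups did not overlap. ATF4, the transcription factor of the amino acid response, rose by 0.15, and SLC3A2, a subunit of amino acid exchangers, by 0.12 (adjusted p = 0.0106 and 0.0195), and beside DDIT4 no other of the 23 genes of that list was called. Of 23 sterol genes, 4 fell (MVK, INSIG1, FDPS and IDI1, by 0.13 to 0.22) and none rose. Over all genes 1.63% fell and 2.96% rose, and the median of the sterol genes was -0.09. Against vehicle, none was called lower with MinE07 alone (median -0.06) and 9 were with C36 alone (median -0.13). The desaturase SCD and the lipid regulator SREBF1 fell by 0.21 and 0.20 (adjusted p = 0.0164 and 0.0119). The sterol count was 0 without vehicle replicate 2 or 3 and 7 without MinE07 replicate 1. It was 2 without C36 replicate 1, C36 replicate 2, MinE07 replicate 2 or vehicle replicate 1. None of 18 endoplasmic reticulum stress genes, 29 lysosome genes, 30 respiratory chain genes, 22 RNA decay genes or 16 genes of magnesium and calcium handling was called.

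Over all genes 2.96% were called higher and 1.63% lower, and the few calls in each of the lists that follow are not read as results about the lists. In nucleotide metabolism CDA, CTPS1 and UCK2 rose by 0.17, 0.17 and 0.15 (adjusted p = 0.0240, 0.00494 and 0.0488), and NT5E, described above, was the 1 fall among 25 tested. The number called higher was 1 without vehicle replicate 1, without vehicle replicate 2 or without both MinE07 libraries with mitochondrial zeros, 3 without MinE07 replicate 1, and 2 without any 1 of the remaining libraries. The heat shock genes HSPA1A and HSPA1B, near-identical copies between which reads can be split, rose by 0.19 and 0.17 (adjusted p = 0.00499 and 0.0245), and the remaining 14 of that list were not called. Of 8 metallothionein and zinc genes, MT1X fell by 0.53 (adjusted p = 0.0195) and the zinc importer SLC39A10 rose by 0.20 (adjusted p = 0.0395). MT1F and MT1E, at -0.76 and -0.46, were not called (adjusted p = 0.0693 and 0.134). The call of SLC39A10 was lost after rescaling by medians of ratios (adjusted p = 0.0532). Metallothioneins are similar in sequence, so the assignment of reads among them is uncertain. AKR1B10 fell by 0.35 and SRXN1 rose by 0.11 in the NRF2 list (adjusted p = 0.0108 and 0.0343), and the call of SRXN1 was lost after rescaling (adjusted p = 0.0540). Of the Wnt, Notch and TGF-beta genes, ID1, ID2 and SMAD6, targets of BMP signalling, fell by 0.24, 0.24 and 0.21 (adjusted p = 0.0149, 0.0109 and 0.0240), beside the rises of ANKRD1, CCN1 and CCN2. None of that list was called lower without vehicle replicate 1 or 2, 2 were without vehicle replicate 3, and 1 without both MinE07 libraries with mitochondrial zeros. HNRNPH1, a splicing factor, was the 1 called gene of 24 in its list, beside 4.59% called over all genes, and rose by 0.16 (adjusted p = 0.0262). None of the 13 circadian clock genes was called.

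Single calls differed in how much they rested on 1 library. Of the 71 called genes named by rule, none turned direction in any alternative. In the fits that left out 1 library, 32 kept their call wherever they were tested. They included FILIP1L, CLDN1, ODAPH, FSTL3, PDE5A, SLC1A3, CD70, CDC42EP1, LAYN, CCN1, CCN2, MYC, RELB, NFKB2, SNAI2, CTPS1 and HSPA1A among the rises, and SOX2, PRR15, PRRT1B, ETV4, FAM20C, CEACAM1, EDN2, KIF20A, CDKN1A, DDIT4, NT5E, NDRG1, EGLN3 and NKX2-1 among the falls. ETV4 was not tested without vehicle replicate 1 or 2, where its mean was under 1 FPKM. Its call was lost with no filter beyond values above 0 and without both MinE07 libraries with mitochondrial zeros. Calls of PRR15L, ATF4 and ALDOA were lost without vehicle replicate 2. Those of MT1X, ANXA2R, NMU, AXL, SLC3A2, CDA, LDHA, AKR1B10 and POLR1B were lost without vehicle replicate 1 or 2, those of MYCL, MVK, INSIG1, SCD, SREBF1 and NOP2 without vehicle replicate 2 or 3, and those of ANKRD1, CDT1 and SFTA3 whichever vehicle library was left out. Calls of CCL2, HBEGF, IFI44, CCNE1, CENPE, BUB1, FDPS, BNIP3, HK2, SRXN1, HSPA1B, SLC39A10, RRS1, HNRNPH1, SPARC, SLC34A2 and LY6E-DT were lost in 4 to 8 of the 9 fits that leave out 1 library, aptamer libraries among them.

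The 2 aptamers were then set against each other to see how far the pooled group is uniform. Between MinE07 and C36, 4 of 13627 genes (0.0294%) were called, EGR1, NPIPA5, FAAP100 and ALDH3B1, and none of the 625 genes called in the pooled comparison was among them. In the pooled fit a difference between the aptamers counts as spread and works against a call, so this lack of overlap is no support. With 3 libraries of each aptamer, few calls do not show that the aptamers acted alike. These 4 genes were named after their values were seen. EGR1, an immediate early gene downstream of MAP kinases, was 1.01, 1.27 and 1.18 FPKM with MinE07, 2.30, 2.42 and 2.31 with C36 and 2.55, 2.32 and 2.47 with vehicle. Its pooled change of -0.44 therefore averages unlike groups and was not called (adjusted p = 0.355). Each aptamer alone gave 439 called genes for MinE07 (3.22%) and 413 for C36 (3.03%), and these comparisons share the vehicle libraries. The counts per list were unlike for mitotic, sterol and EGFR-MAPK genes, as given above, and for metallothionein and zinc genes, with none called lower with MinE07 alone and 3 with C36 alone. Of the genes in these lists, EGR1 was called between the aptamers and no other. For FILIP1L the change was 0.67 with MinE07 and 0.57 with C36, for SOX2 -0.50 and -0.65, for CCN1 0.43 and 0.39, for MYC 0.34 and 0.34, and for CDKN1A -0.31 and -0.35. Among the 24 genes with the largest changes, ANKRD1 (0.61 and 0.37), PRRT1B (-0.36 and -0.57) and FSTL3 (0.58 and 0.40) had the largest differences between the aptamers, with no call of the difference (adjusted p = 0.330, 0.201 and 0.377).

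H820 was compared with the other lines by testing whether its change, the mean of both aptamers minus vehicle, differed from the mean of the same change in H3255, H1975 and A549. Of 13551 genes tested in all 36 libraries, 1172 (8.65%) differed, 634 (4.68%) with H820 above and 538 (3.97%) below. The mean of the other lines joins unlike responses, since 3263 genes were called for the same contrast in H3255, 1695 in H1975, 1764 in A549 and 748 in H820 in that fit. Genes called in H820 enter with the change they were called for, so their share among the differing genes is not read as a result.

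FILIP1L changed by -0.14 in H3255, -0.10 in H1975 and 0.06 in A549, and H820 stood above their mean by 0.68 (adjusted p = 6.21e-08). For CCN1 the changes were -0.23, -0.05 and -0.01 in the same order, with H820 above by 0.51 (adjusted p = 2.26e-08). In H3255 CCN1 and CLDN1 fell (CLDN1 by 0.32), and CLDN1 in H820 was above the mean of the others by 0.62 (adjusted p = 1.11e-07). SOX2 was at 0.12, -0.14 and 0.04, with H820 below their mean (difference -0.58, adjusted p = 3.9e-08). CDKN1A fell in H3255 as well (-0.30) and rose in H1975 and A549 (0.13 and 0.17), and the difference was -0.33 (adjusted p = 3.55e-06). DDIT4 rose in H3255 and A549 (0.28 and 0.16) and was at -0.14 in H1975, a difference of -0.45 (adjusted p = 2.81e-06). LY6E-DT, a divergent transcript beside LY6E that overlaps other genes' reads if strand was not used in counting, also stood lower in H820 (-0.61, adjusted p = 0.00455).

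The YAP and actin lists, added after values had been seen, were also compared between lines. Their difference holds the same H820 change that had been seen, so their counts describe and support nothing. Over all 13551 genes, 4.68% differed with H820 above and 3.97% with H820 below. The median change over all genes was 0.01 in H820, 0.02 in H3255, 0.0013 in H1975 and 0.01 in A549. In the fit of all libraries the median change of 21 YAP and TEAD targets was 0.13 in H820, -0.05 in H3255, -0.03 in H1975 and 0.01 in A549, and 11 members differed with H820 above and 1 with H820 below. For 24 actin cytoskeleton genes the medians were 0.12, -0.10, -0.01 and 0.01, and 13 differed with H820 above and none below. CNN3, ACTN1, TPM4 and ACTB were above the mean of the other lines by 0.34, 0.22, 0.20 and 0.25 (adjusted p = 9.87e-06, 5.16e-06, 6.55e-06 and 5.2e-05). Interferon response genes had medians of -0.07 in H820, 0.25 in H3255, 0.02 in H1975 and 0.21 in A549, and 12 of 22 differed with H820 below and none above. Of 17 hypoxia targets the medians were -0.08, -0.34, -0.18 and -0.04, and 5 differed with H820 above. BNIP3 and NDRG1 did not differ by the test (0.01 and -0.0047, adjusted p = 0.939 and 0.959). The mitotic list had medians of -0.10, -0.22, -0.13 and -0.12, with 3 members above and 1 below in H820.

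**Figure D5:**
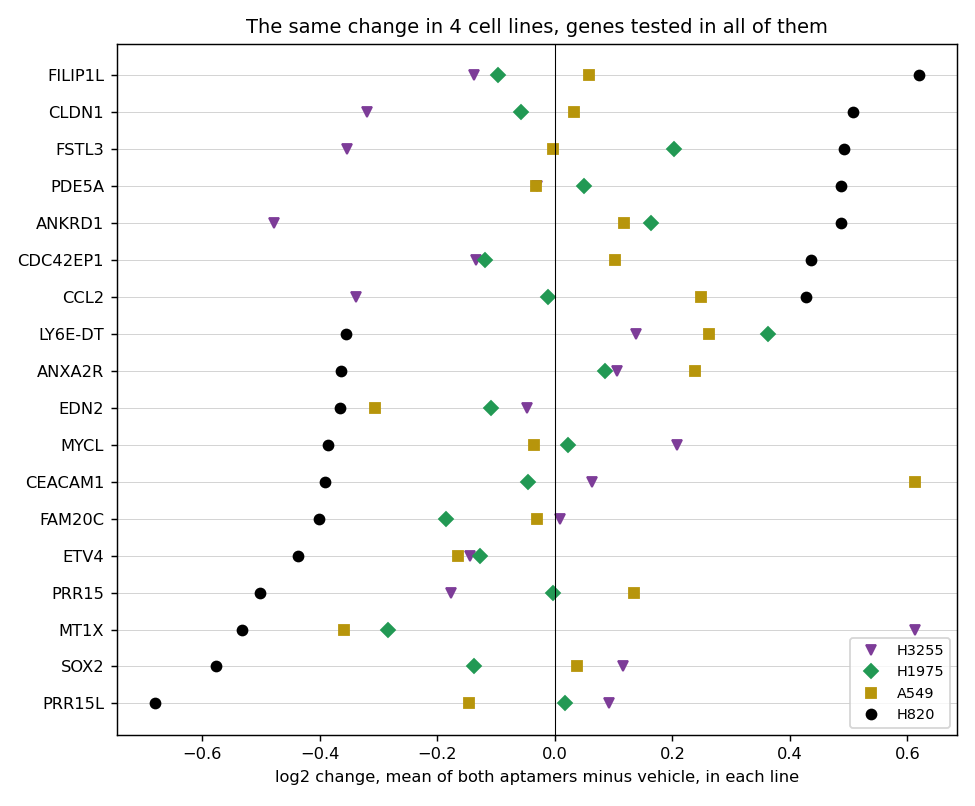
Each row is a gene tested in all lines, taken from the largest changes in H820 and the largest differences between lines; the x axis is the log2 change, mean of both aptamers minus vehicle, in each line (12 group means fitted to 36 libraries). Black circles (H820) are the outermost points in the rows of FILIP1L, CLDN1 and SOX2, and MT1X and CEACAM1, which fell in H820, rose in H3255 and A549, respectively.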

How the data were processed

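RNA was taken from cultured cells after 24 h of treatment, and per the labels' protocols it was made into stranded poly-A libraries and read as pairs of 100 bases. The authors deposited 1 table per library with FPKM per gene and no read counts. HISAT2 and Cuffdiff are named in the submitters' processing notes, with the builds GRCh38.p12 and hg38, and no version, parameter or strand setting is given in the sources used here. Of 68271 entries, 1874 without a name and 31 with repeated names were left out. Relative depth was estimated from the steps between low FPKM values, and read totals stay unknown.

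Genes with a mean of at least 1 FPKM over the 9 H820 libraries and above 0 in all were kept (13627, while 126 more had a 0). The deposited FPKM were put on the scale log2(FPKM + 0.5) and fitted with limma 3.58.1 in R 4.3.3 (a 2-group model of 6 against 3 libraries, trended and robust moderation, two-sided, Benjamini-Hochberg adjustment over all tested genes, called under 0.05). Differences between lines and aptamers came from group means fitted to 36 and to 9 libraries. The fit was tested on simulated data. A p-value sets a change against the spread between libraries. In the pooled fit the 6 aptamer libraries count as 1 group, so this spread also holds the difference between MinE07 and C36.

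The genes named were EGFR, ERBB2, ERBB3 and MET, the 12 largest called rises and falls whose groups did not overlap among protein-coding and long non-coding genes with a current symbol (small RNAs, pseudogenes, uncharacterized loci and further copies left out), up to 3 called members per list and up to 2 in each direction of the difference between lines. Other genes were named after their values were seen, and a few genes are not reported here. The members and lists were chosen with earlier results of these data known, and the lists of YAP and TEAD targets and of the actin cytoskeleton were added after values were seen. Alternatives covered the pseudocount, filters on low values, scaling by medians of ratios, GC content and length, a replicate block, the set of libraries fitted and leaving out each library. Promoter windows came from RefSeq (GRCh38.p14), whose coordinates are of that build.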

Additional observations from a re-analysis of the deposited data

Results flagged for a closer look

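The H820 response, as the log2 change with both aptamers, differed from the mean response of H3255, H1975 and A549 for 42 of the 61 named genes that could be tested in all lines (limma, adjusted p under 0.05). For genes chosen by their change in H820 the difference holds that same change, so this count is a description. Among them, H820 stood above the other lines for MET (0.16), FILIP1L (0.68), CLDN1 (0.62), FSTL3 (0.54), PDE5A (0.49), ANKRD1 (0.55), CDC42EP1 (0.49), AXL (0.23), MYC (0.31), HBEGF (0.35), RELB (0.35), CCNE1 (0.25), CDT1 (0.15), CTPS1 (0.29), EGLN3 (0.15), LDHA (0.15), HK2 (0.40), SRXN1 (0.078), HSPA1A (0.17), RRS1 (0.16), NOP2 (0.17), POLR1B (0.12), HNRNPH1 (0.22), CCN1 (0.51) and CCN2 (0.29), with the difference in parentheses. It stood below them for ERBB3 (-0.26), PRR15L (-0.67), SOX2 (-0.58), MT1X (-0.52), PRR15 (-0.49), ETV4 (-0.29), FAM20C (-0.33), CEACAM1 (-0.60), MYCL (-0.45), ANXA2R (-0.51), IFI44 (-0.36), KIF20A (-0.11), CDKN1A (-0.33), DDIT4 (-0.45), NT5E (-0.19) and LY6E-DT (-0.61). EGLN3 and LDHA fell in all 4 lines, by 0.28 and 0.22 in H820 and by 0.60 and 0.68 in H3255. MET and ERBB3 were not called in H820 (0.06 and -0.06). In H3255, H1975 and A549 the change was -0.13, -0.10 and -0.08 for MET and 0.13, 0.12 and 0.36 for ERBB3.

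Single libraries stood apart in 2 of 75 tests of the 6 aptamer libraries, where chance gives about 1 in 20. SOX2 was 6.23 FPKM in MinE07 replicate 1, and the nearest of the other aptamer libraries was 5.16. HBEGF was 6.79 FPKM in C36 replicate 1, and the nearest was 6.06.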

How the results depend on the processing

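The 625 calls of the pooled comparison fell to 321 with no filter beyond values above 0, 321 with the replicate block, 413 with C36 alone and 292 without both MinE07 libraries with mitochondrial zeros (C36 alone and the last chosen after seeing the data). The count ranged from 145 to 552 when 1 library was left out. It stayed within 1.5 times the 625 under the other alternatives: 622 and 623 with pseudocounts of 0.1 and 1, 597 with zeros allowed, 565 at a mean of at least 5 FPKM, 560 after rescaling by medians of ratios (55.4% higher), 508 without trend and robust moderation, 910 in the fit of all 36 libraries, 742 with correction for GC content and length and 476 with that correction and the replicate block. The 1172 genes that differed between H820 and the other lines ranged from 723 to 1109 when 1 H820 library was left out, the fewest without vehicle replicate 2 (723) and vehicle replicate 3 (730), and were 966 with the replicate block. Equal replicate numbers did not mark samples that deviate together (correlations of same-numbered samples from -0.205 to 0.063), so the block, with which 19 of 71 named calls were lost, is no paired analysis. ERBB2, uncalled at 0.0011, turned to -0.0083 after rescaling, -0.018 with correction for GC content and length, with or without the replicate block, -0.026 without both MinE07 libraries and -0.030 to 0.027 when 1 library was left out. ERBB3, uncalled at -0.06, ranged from -0.108 to 0.041 when 1 library was left out. Why these values moved was not tested. Depth is known only relative to other libraries, so counting error of low genes cannot be given.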

Other observations

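Some of the largest changes lay in short or non-coding RNAs, and their levels spread widely between libraries. SNORA70, a small nucleolar RNA, was 2.71, 4.77 and 4.82 FPKM in vehicle, 8.27, 8.98 and 7.61 with C36 and 5.95, 9.06 and 7.16 with MinE07, with a change of 0.88 (limma adjusted p = 0.0423). SNORA109 was 22.8, 9.94 and 14.6 FPKM in vehicle and between 27.2 and 33.7 FPKM in the aptamer libraries, which did not overlap vehicle, yet it was not called (0.99, adjusted p = 0.0563). RNA18SN5, an 18S ribosomal RNA gene, was 1205, 749 and 611 FPKM in vehicle, 554, 314 and 576 with C36 and 718, 354 and 364 with MinE07, with overlap between the groups (-0.84, adjusted p = 0.230). The mitochondrial tRNA gene TRNY was 995, 1436 and 4491 FPKM in vehicle and 3242 to 7282 FPKM with an aptamer (1.43, adjusted p = 0.190). FPKM of such short genes depend strongly on how the counting treats short features, which is not given in the sources used here.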
